A study of Mus musculus with 19 samples.

Results

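A set of 7 genes of the class II antigen presentation pathway was followed through mouse T helper 2 (Th2) cultures: *Cd74*, *H2-Aa*, *H2-Ab1*, *H2-Eb1*, *H2-DMa*, *H2-DMb1* and *Ciita*. They were chosen by symbol, are 7 of the 22878 gene symbols in the RNA tables, and each is represented by its most read transcript over the 16 RNA libraries together. RNA had been sequenced, after amplification from 10 ng, from 8 groups of 2 libraries in 2 experiments. The Bcl11b experiment comprised early Bcl11b KO, early Bcl11b WT, late Bcl11b KO and late Bcl11b WT Th2 cells. All 4 of these groups came from naive CD4 T cells of Bcl11b fl/fl-CreERT2 mice, whose *Bcl11b* alleles are flanked by loxP sites and whose CreERT2 recombinase becomes active on 4-hydroxytamoxifen (4-OHT). The promoter that drives CreERT2 was not given in the sources used here. Early cells had 4 days of Th2 culture. Late cells had 4 days of Th2 culture, 1 day of rest in medium with IL-2 and 4 more days of Th2 culture. KO cultures received 4-OHT, the early ones during their only culture and the late ones during the second, and WT cultures were left without it. Effects of the drug itself and of the deletion therefore cannot be told apart. The Gata3 experiment comprised early Gata3 KO, early Gata3 WT, late Gata3 KO and late Gata3 WT Th2 cells, for which mice, deletion method and culture times were not given in the sources used here. Binding of Bcl11b and GATA3 to chromatin had been measured in late WT Th2 cells, with 1 library per antibody and 1 input library. Nothing in the labels says whether the 2 libraries of a group came from separate mice or cultures, so p-values measure only the spread between these libraries, which may be technical.

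MHC class II molecules present peptides from internalised proteins to CD4 T cells and are made mainly by B cells, dendritic cells and macrophages. *H2-Aa* and *H2-Ab1* encode the alpha and beta chains of the I-A molecule, and *H2-Eb1* encodes the beta chain of I-E. *Cd74* encodes the invariant chain, which guides new class II molecules to endosomes and blocks their groove. *H2-DMa* and *H2-DMb1* encode chains of the H2-M heterodimer, which exchanges the invariant chain remnant for antigenic peptide. *Ciita* encodes the class II transactivator, which is recruited to the class II promoters and which interferon gamma induces in many cell types. Class II genes are silent or low in most mouse T cells. RNA of these genes in a T cell culture therefore raises the question of whether it came from T cells or from B cells or myeloid cells carried over from the isolation.

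Apart from *Cd74*, the members lie in the annotation of the mouse genome (mm10, the same assembly as GRCm38) as follows. *H2-DMb1* spans chr17:34153191-34160229, *H2-Ab1* chr17:34263227-34269418, *H2-Aa* chr17:34282744-34287823 and *H2-Eb1* chr17:34305867-34316674. *H2-DMa* lies beside *H2-DMb1* in the same class II region of chromosome 17, and *Ciita* spans chr16:10480014-10531064. Class II promoters are known for an X box and a Y box held at a near-constant spacing, the sites on which the RFX and NF-Y factors assemble before Ciita is recruited. The 150 bases upstream of the annotated start are shown for the 3 members in which the core letters GNAACT of an X box and ATTGG of a Y box (CCAAT on the other strand) were found in that order, as RefSeq gives them for GRCm38.p6, 5′ to 3′ on the strand of the gene. Capitals mark these letters. The *H2-Aa* stretch is the minus strand of chr17:34287824-34287973, the *H2-Eb1* stretch is the plus strand of chr17:34305717-34305866 and the *H2-DMb1* stretch is the plus strand of chr17:34153041-34153190.
H2-Aa: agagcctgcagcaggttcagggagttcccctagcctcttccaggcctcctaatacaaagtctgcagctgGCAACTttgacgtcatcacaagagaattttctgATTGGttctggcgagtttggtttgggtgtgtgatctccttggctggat
H2-Eb1: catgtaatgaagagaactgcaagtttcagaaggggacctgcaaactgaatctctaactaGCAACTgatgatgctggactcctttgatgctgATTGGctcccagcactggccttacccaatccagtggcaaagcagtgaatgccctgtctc
H2-DMb1: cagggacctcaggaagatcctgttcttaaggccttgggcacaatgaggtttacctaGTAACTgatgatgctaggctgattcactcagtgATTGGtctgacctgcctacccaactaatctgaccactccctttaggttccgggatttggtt
The starts of the capitalised pairs were 33 bases apart in *H2-Aa*, 32 in *H2-Eb1* and 33 in *H2-DMb1*. Spacings of 30 to 36 bases were searched on both strands, and such a pair was found in 124 of 32851 promoter stretches of 300 bases (0.377%). Taken singly, the letters are common: GNAACT occurred in 42.8% of these stretches and ATTGG in 37.4%. The motif letters were chosen after these sequences had been seen, so the match is a description. Promoter entries were at hand for 4 of the 7 members, and the entries of *H2-DMa* held no such pair.

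Some features of the libraries bear on all that follows. Reads assigned to genes numbered 4687552 to 14577958 per library. The 2 early Bcl11b WT libraries stood apart from the rest: gene reads made up 20.7% and 16.9% of the total implied by the RPKM values, against 40.7% to 60.3% in the other 14 libraries, and transcripts of 1458 odorant and vomeronasal receptors, which T cells are not known to use, held 3.78 and 4.87 reads per kb against at most 0.507 elsewhere. In the Gata3 experiment, early and late WT libraries of the same number resembled each other more than the 2 libraries of 1 group did (chi-square per degree of freedom 4.26 and 2.52 across the stages, against 12.8 and 13.5 within the early and late WT groups), although no pair of libraries was within sampling noise. RNA of the targeted genes was detected in every KO library. *Bcl11b* stood at 66.5 and 54.2 CPM (read counts scaled to a common library size) in early Bcl11b KO cultures against 126 and 128 CPM in early WT cultures, and at 75.6 and 137 CPM in late Bcl11b KO against 140 and 181 CPM in late WT, where the fall did not pass the test (log2 −0.59 ± 0.28 SE, edgeR adjusted p = 0.421). *Gata3* stood at 425 and 419 CPM in early Gata3 KO against 1178 and 1280 CPM in early WT, and at 1090 and 954 CPM in late Gata3 KO against 1382 and 1327 CPM in late WT. The T cell genes *Cd3e*, *Cd4* and *Lck* together held 1400 to 5101 CPM in every library. Here and below CPM values are scaled by TMM within each experiment, tests are edgeR quasi-likelihood tests fitted over all genes of an experiment, adjusted p-values are Benjamini-Hochberg values over all genes tested, and only genes with an adjusted p under 0.05 are said to be called.

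**Figure D1:**
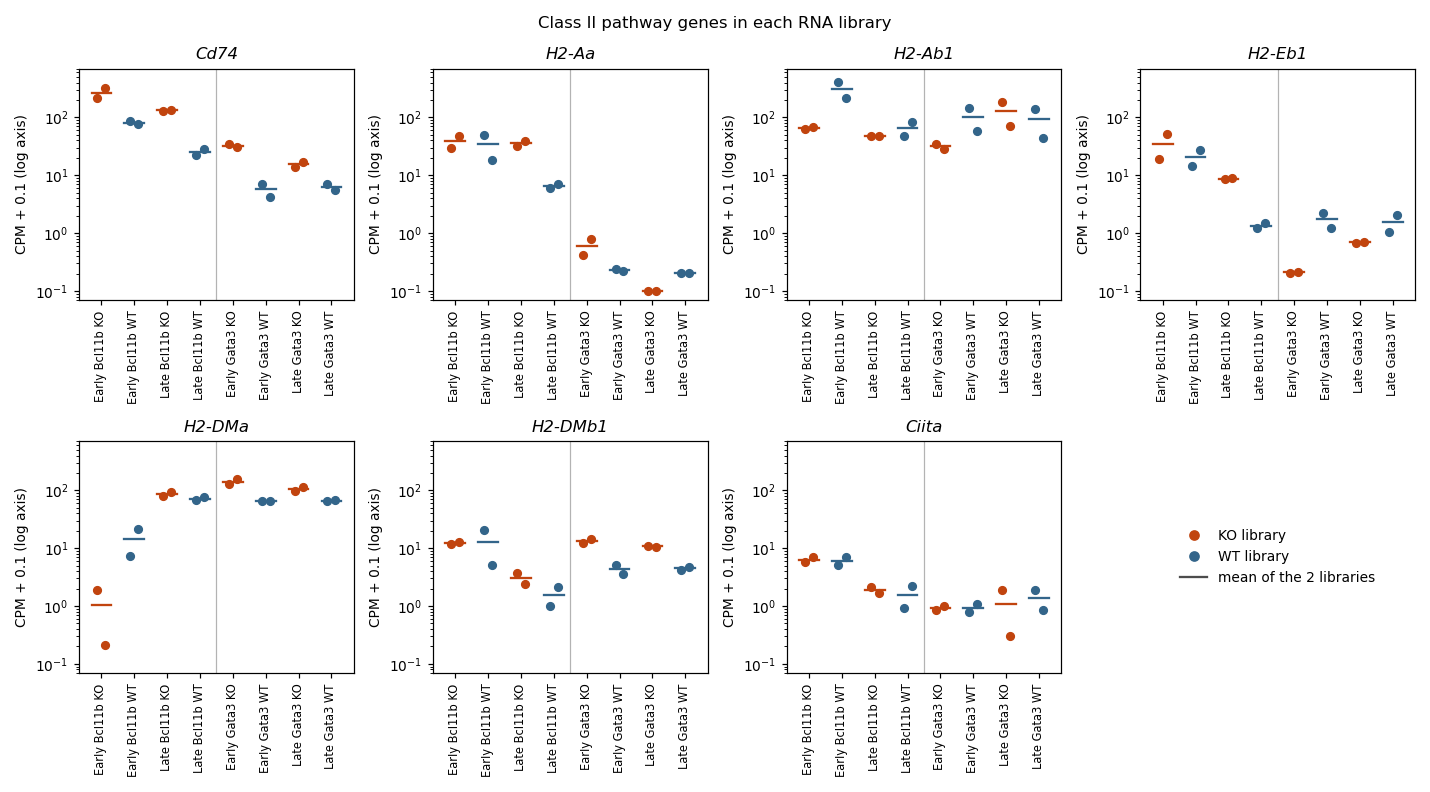
Level of each of the 7 class II pathway genes in the 16 RNA libraries, as CPM plus 0.1 on a log axis, with KO cultures left of their WT cultures and the Bcl11b experiment left of the grey line. Points are libraries and bars are means of 2. *Cd74* points of each KO group lie above those of its WT group in all 4 pairs, whereas *H2-Aa* and *H2-Eb1* are low in the Gata3 experiment.

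*Cd74*, a gene of chromosome 18, was higher in KO than in WT cultures in all 4 comparisons, and it was the only member for which this held. Whether the early and late Gata3 WT libraries came from separate cultures is not known, so the early and late Gata3 comparisons may not be independent. In early Bcl11b KO cultures *Cd74* had 217 and 322 CPM, against 86.3 and 75.4 CPM in early Bcl11b WT. In late Bcl11b KO cultures it had 127 and 137 CPM, against 22.0 and 28.8 CPM in late WT. The groups did not overlap at either stage, and the level in late KO exceeded that in early WT. The difference was log2 1.74 ± 0.24 (SE) early and 2.38 ± 0.25 late, and both passed the test (edgeR adjusted p = 0.00116 and 0.00128). Levels were lower in the Gata3 experiment: early Gata3 KO cultures had 34.3 and 30.8 CPM against 7.05 and 4.13 CPM in early WT, and late Gata3 KO cultures had 13.9 and 17.0 CPM against 7.01 and 5.36 CPM in late WT. These were differences of log2 2.55 ± 0.26 and 1.33 ± 0.26 (edgeR adjusted p = 4.55e-05 and 0.00764). The late Gata3 call was lost without late Gata3 WT library 2 (log2 1.15, edgeR adjusted p = 0.0576) or without late Gata3 KO library 2 (log2 1.165, edgeR adjusted p = 0.05745). In both experiments the order of the groups was early KO, late KO and then the WT groups, and neighbours in that order had separate ranges except the late and early Gata3 WT cultures, which overlapped.

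*H2-Aa* was separated by experiment more than by genotype. Early Bcl11b KO cultures had 29.9 and 47.2 CPM and early Bcl11b WT cultures 50.5 and 18.0 CPM, and the 2 groups overlapped (log2 0.17 ± 0.46, edgeR adjusted p = 0.828). Late Bcl11b KO cultures had 31.4 and 39.7 CPM against 5.88 and 7.07 CPM in late Bcl11b WT. That late difference, log2 2.45 ± 0.48, passed the test (edgeR adjusted p = 0.0302) with all libraries but with none of the 4 late libraries left out, when the edgeR adjusted p lay between 0.1615 and 0.269 and the value between 2.28 and 2.61. The gene was nearly without reads in the Gata3 experiment: 3 and 6 in early Gata3 KO libraries against 1 and 1 in early WT, and 0 and 0 in late Gata3 KO against 1 and 1 in late WT. It did not reach the filter there and was not tested. The read counts of the early Gata3 groups, 9 against 2, gave a ratio of 3.84 with an exact 95% counting interval of 0.796 to 36.6, and the late groups were both at or under a floor of 3 reads.

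*H2-Ab1* did not move with its partner chain. Early Bcl11b KO cultures had 64.0 and 68.3 CPM against 404 and 218 CPM in early Bcl11b WT, so it fell where *Cd74* rose (log2 −2.23 ± 0.33, edgeR adjusted p = 0.00163). Late Bcl11b KO cultures had 47.1 and 47.2 CPM against 47.6 and 84.9 CPM in late WT (log2 −0.49 ± 0.32, edgeR adjusted p = 0.648). Early Gata3 KO cultures had 34.5 and 28.8 CPM against 147 and 57.6 CPM in early Gata3 WT, which did not pass the test (log2 −1.69 ± 0.61, edgeR adjusted p = 0.0631). Late Gata3 KO cultures had 182 and 71.9 CPM against 141 and 44.2 CPM in late Gata3 WT, which overlapped (log2 0.44 ± 0.58, edgeR adjusted p = 0.680). The libraries of a group differed widely, and library 1 was the higher of the pair in each of the 4 Gata3 groups. The early Gata3 value was called when early Gata3 WT library 2 was left out (log2 −2.21, edgeR adjusted p = 0.0248) and also without either late WT library, and it was −0.86 without early Gata3 WT library 1 (edgeR adjusted p = 0.395). Fits without the filter on low values, of only the 4 early libraries or of all 16 libraries also called it. Their edgeR adjusted p-values were 4.4e-09, 0.0146 and 0.0447. The log2 values were −1.68, −1.68 and −1.69, so the p-values differed with the fit and not with the size of the difference. The smallest cannot be read as a measure of the spread between the early WT libraries, at 147 and 57.6 CPM.

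*H2-Eb1* had fewer reads per kb than either I-A chain in each Bcl11b library. Early Bcl11b KO cultures had 19.3 and 51.1 CPM and early Bcl11b WT cultures 14.2 and 26.8 CPM, with overlap between them (log2 0.78 ± 0.52, edgeR adjusted p = 0.318). Late Bcl11b KO cultures had 8.50 and 8.75 CPM against 1.12 and 1.37 CPM in late WT, that is 119 and 83 reads against 16 and 19 (log2 2.78 ± 0.58, edgeR adjusted p = 0.0370). As with *H2-Aa*, the call was lost on leaving out any 1 of the 4 late libraries, at log2 values of 2.67 to 2.93 and edgeR adjusted p-values of 0.209 to 0.318. It was also lost without the filter on low values, where edgeR gave an adjusted p of 0.0618. Gata3 libraries had the opposite order: 1 and 1 reads in early Gata3 KO against 16 and 9 in early WT, and 3 and 6 reads in late Gata3 KO against 9 and 18 in late WT. The early ratio of 2 reads to 25 was 0.0684 of the WT level (exact 95% counting interval 0.00785 to 0.274) and the late ratio of 9 to 27 was 0.420 (0.174 to 0.921). These intervals cover counting error only, since reads from amplified cDNA are not independent molecules. The gene did not reach the filter in that experiment.

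*H2-DMa* ran from 0.110 to 155 CPM over the 16 libraries. In early Bcl11b KO cultures it had 1.77 and 0.110 CPM, which is 17 reads and 1 read, against 7.33 and 21.2 CPM in early Bcl11b WT (log2 −3.88 ± 0.73, edgeR adjusted p = 0.00503). The size of that fall rested on few reads: it was −6.92 without early KO library 1, −3.05 without early KO library 2 and −2.96 without early WT library 2, and called in each case. With only the 4 early libraries in the fit it was −3.93 and not called (edgeR adjusted p = 0.0797). In late Bcl11b cultures it stood at 80.2 and 93.1 CPM in KO against 68.2 and 75.6 CPM in WT (log2 0.27 ± 0.53, edgeR adjusted p = 0.948). No Gata3 library was under 64.6 CPM. Early Gata3 KO cultures had 129 and 155 CPM against 66.3 and 64.6 CPM in early Gata3 WT, and late Gata3 KO cultures 95.7 and 114 CPM against 65.1 and 67.5 CPM in late WT. Both differences passed the test, at log2 1.12 ± 0.13 and 0.66 ± 0.13 (edgeR adjusted p = 0.000127 and 0.00859). The late one was lost without late Gata3 WT library 1 (log2 0.63, edgeR adjusted p = 0.0606) or late Gata3 KO library 2 (log2 0.53, edgeR adjusted p = 0.0522), and in a fit of all 16 libraries (edgeR adjusted p = 0.483).

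*H2-DMb1*, whose product pairs with that of *H2-DMa*, was called higher beside it in the Gata3 experiment but did not pass the test in early Bcl11b cultures, where *H2-DMa* fell. Early Gata3 KO cultures had 12.3 and 14.2 CPM against 5.02 and 3.51 CPM in early Gata3 WT, and late Gata3 KO cultures 10.96 and 10.54 CPM against 4.08 and 4.71 CPM in late WT. Both rises passed the test (log2 1.64 ± 0.25 and 1.28 ± 0.25, edgeR adjusted p = 0.000680 and 0.00770), and both were lost in a fit of all 16 libraries (edgeR adjusted p = 0.0562 and 0.273). The late one was also lost without late Gata3 WT library 1 (log2 1.17, edgeR adjusted p = 0.0594). In early Bcl11b KO cultures *H2-DMb1* had 11.6 and 12.9 CPM, against 20.7 and 5.03 CPM in early WT. In late Bcl11b KO cultures it had 3.57 and 2.32 CPM against 0.910 and 2.02 CPM in late WT, and neither comparison passed the test (edgeR adjusted p = 0.956 and 0.714). Its near-identical neighbour *H2-DMb2* also rose in Gata3 KO cultures, to 14.4 and 17.9 CPM early against 4.07 and 3.13 CPM in WT, and to 12.5 and 12.9 CPM late against 3.14 and 3.86 CPM in WT. How reads shared by the pair were counted was not given in the sources used here, so which of them the reads came from is uncertain.

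*Ciita* did not reach the filter in either experiment, with 2 to 62 reads per library. Early Bcl11b KO cultures had 5.63 and 6.84 CPM against 5.03 and 6.92 CPM in early WT, and late Bcl11b KO cultures 2.00 and 1.58 CPM against 0.840 and 2.09 CPM in late WT. Early Gata3 KO cultures had 0.758 and 0.915 CPM against 0.678 and 1.00 CPM in early Gata3 WT. Late Gata3 KO cultures had 1.76 and 0.203 CPM against 1.78 and 0.750 CPM in late WT. KO and WT overlapped in each of the 4 pairs. The ratios of summed reads were 1.04 early and 1.26 late in the Bcl11b experiment, with exact 95% counting intervals of 0.752 to 1.46 and 0.8002 to 1.977. Background was not taken off these counts. In the early WT libraries receptor transcripts held 3.78 and 4.87 reads per kb, and the *Ciita* transcript of 5091 bases had 24 and 33 reads. These reads are not far above that background. Early KO libraries had 54 and 62 *Ciita* reads, with 0.507 and 0.290 receptor reads per kb. The early ratio therefore does not show an equal level. The Gata3 ratios were 0.986 (0.438 to 2.25) and 0.578 (0.256 to 1.23). Counting error at this depth leaves a 2.25-fold rise in early Gata3 KO within the interval.

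**Figure D2:**
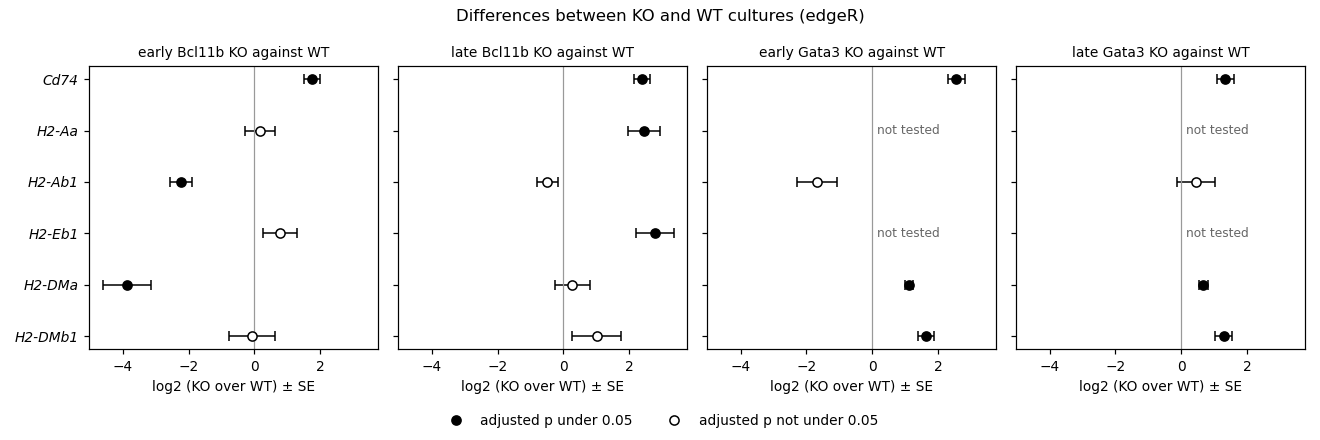
Difference between KO and WT cultures for the 6 members other than *Ciita*, as log2 of KO over WT with its standard error from edgeR, in 4 panels for early and late Bcl11b and early and late Gata3. Filled points had an adjusted p under 0.05, and genes under the filter are written as not tested. *Cd74* lies right of 0 with a filled point in all panels, and *H2-Ab1* has a filled point, left of 0, in the early Bcl11b panel alone.

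Counted over the members, 6 of 7 could be tested in the Bcl11b experiment and 4 of 7 in the Gata3 experiment. In early Bcl11b KO cultures 1 rose (*Cd74*) and 2 fell (*H2-Ab1* and *H2-DMa*), where 21.1% of all 10873 genes tested were called, 11% higher and 10.1% lower. KO and WT libraries did not overlap for 3 of the 6, against 53.9% of all genes. The median log2 difference was 0.05 over the 6 and 0.03 over all genes. In late Bcl11b KO cultures 3 rose (*Cd74*, *H2-Aa* and *H2-Eb1*), against 1.69% of all genes called higher and 2.22% called in either direction, and the medians were 1.69 over the 6 and −0.02 over all genes. There the libraries did not overlap for any of the 6, 5 higher and 1 lower in KO, against 54.3% of all genes. In early Gata3 KO cultures 3 of 4 rose (*Cd74*, *H2-DMa* and *H2-DMb1*) where 30.7% of 10601 genes were called and 14% were called higher, and in late Gata3 KO cultures the same 3 rose where 14% were called and 8.44% were called higher. Libraries did not overlap for 4 of 4 members early, against 67.1% of genes, and for 3 of 4 late, against 54.1%. Without the filter, *H2-Ab1* and *H2-Eb1* were also called in early Gata3 KO, both lower. A comparison of KO effects between the 2 experiments was not made as a test, since their cultures differ.

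The KO effects were also compared between the stages. In the Bcl11b experiment the late effect exceeded the early one for *H2-DMa* by log2 4.15 ± 0.91 (edgeR adjusted p = 0.0393), where 3.24% of all genes were called, 1.95% with a larger and 1.29% with a smaller value late. That call was lost without early Bcl11b WT library 2 or without any 1 of the 4 late libraries (edgeR adjusted p between 0.0526 and 0.190), and in DESeq2 (adjusted p = 0.0502) and with background-subtracted counts (edgeR adjusted p = 0.0606). The value was 7.2 without early KO library 1. *H2-Aa* (log2 2.28 ± 0.66, edgeR adjusted p = 0.0932) and *H2-Ab1* (1.74 ± 0.46, 0.0695) did not pass with all libraries, but did without early Bcl11b WT library 2, at edgeR adjusted p-values of 0.0135 and 0.0186. Of the 4 members tested in the Gata3 experiment 0 passed in the edgeR fit used throughout, where 12.2% of all genes did, 7.74% higher and 4.47% lower. Of the 4, 3 had an unadjusted p under 0.05, and DESeq2 and limma called 1 member, *Cd74*, whose late effect was smaller than the early one by log2 −1.21 ± 0.36 (edgeR adjusted p = 0.0592). Without early Gata3 WT library 1 the *Cd74* value was −1.66 in edgeR. Other edgeR fits of all 8 Gata3 libraries did call members. Without the filter on low values *Cd74* and *H2-Ab1* were called. With the replicate number as a block *Cd74*, *H2-Ab1* and *H2-DMa* were called.

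Late cultures were set against early ones of the same genotype. In Bcl11b WT cultures all 6 tested members were called, 1 higher and 5 lower, where 41.7% of all genes were (19.7% higher and 22% lower). Libraries did not overlap for any of the 6, against 72.1% of genes, and the comparison rests on the early WT libraries that stood apart. *Cd74* fell to 22.0 and 28.8 CPM late, against 86.3 and 75.4 CPM early (log2 −1.67 ± 0.25, edgeR adjusted p = 0.000465). *H2-Eb1* fell by 4.03 ± 0.60 and *H2-Ab1* by 2.23 ± 0.33 on the log2 scale. *H2-Aa* fell by 2.40 ± 0.49, or by 1.48 without early Bcl11b WT library 1. *H2-DMb1* fell by 3.13 ± 0.78, and this call was lost without early WT library 1 (log2 −1.77, edgeR adjusted p = 0.0775) or late WT library 1 (log2 −2.69, edgeR adjusted p = 0.0942). *H2-DMa* moved the other way, to 68.2 and 75.6 CPM late against 7.33 and 21.2 CPM early (log2 2.34 ± 0.58, edgeR adjusted p = 0.00902, and 3.28 without early WT library 2). Limma on RPKM, which scales by the implied total, called 2 of the 6, *H2-Eb1* and *H2-DMa*, in the same directions.

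In Bcl11b KO cultures *H2-DMa* stood at 80.2 and 93.1 CPM late against 1.77 and 0.110 CPM early (log2 6.48 ± 0.74, edgeR adjusted p = 0.000121, and 9.51 without early KO library 1), where 36.6% of all genes were called, 17% higher and 19.6% lower. Late and early KO libraries did not overlap for 5 of 6 members, against 72.2% of genes. *Cd74* fell by 1.03 ± 0.23 and *H2-Eb1* by 2.03 ± 0.53 on the log2 scale (edgeR adjusted p = 0.00682 and 0.0135). Both calls were lost without early KO library 2, where the values were −0.68 and −1.12, and without late KO library 1, where edgeR gave adjusted p-values of 0.0682 and 0.102. The *H2-Eb1* call was lost without late KO library 2 as well (edgeR adjusted p = 0.0917). *H2-Aa*, which overlapped between the late and early KO cultures, differed by log2 −0.12 ± 0.45. Early and late Gata3 WT libraries of the same number resembled each other, as given above. Whether they came from separate cultures is not known. This bears on their comparison, on the Gata3 stage difference and on how separate the early and late Gata3 KO comparisons are. In Gata3 WT cultures 0 of the 10601 genes were called between late and early (0%), members included, in edgeR or DESeq2, with 128 genes and no member at an unadjusted p under 0.05 in edgeR. Limma called 0 genes on log2(RPKM + 1) and 1 gene on log2(RPKM + 0.1), which was no member. Late and early libraries overlapped for all 4 tested members, where 24.9% of genes did not overlap. In Gata3 KO cultures, where 24.5% of all genes were called (14.3% higher and 10.3% lower), 1 of 4 members rose and 2 fell, and the libraries of none of the 4 overlapped, against 63.7% of genes. *Cd74* fell to 13.9 and 17.0 CPM late against 34.3 and 30.8 CPM early (log2 −1.06 ± 0.23, edgeR adjusted p = 0.00862). *H2-DMa* fell by 0.43 ± 0.13 and *H2-Ab1* rose by 1.99 ± 0.61 on the log2 scale (edgeR adjusted p = 0.0349 and 0.0411). None of these 3 calls held without late Gata3 KO library 1, where *H2-Ab1* was at log2 1.16, and *Cd74* and *H2-Ab1* were lost without early Gata3 KO library 1, *H2-Ab1* and *H2-DMa* without early Gata3 KO library 2, and *H2-DMa* without late Gata3 WT library 2.

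The make-up of the class II transcripts differed between the groups. Reads were divided by transcript length before genes were compared. For each *Cd74* read per kb, *H2-Ab1* had 0.350 and 0.252 reads per kb in early Bcl11b KO libraries against 5.55 and 3.42 in early WT, and 0.440 and 0.409 in late Bcl11b KO against 2.569 and 3.496 in late WT. The same ratio was 1.19 and 1.11 in early Gata3 KO against 24.7 and 16.5 in early Gata3 WT, and 15.6 and 5.01 in late Gata3 KO against 23.9 and 9.77 in late WT. KO was below WT without overlap in 3 of the 4 pairs, late Gata3 being the exception. Between the I-A chains, *H2-Aa* had 0.522 and 0.772 reads per kb for each of *H2-Ab1* in early Bcl11b KO against 0.140 and 0.0925 in early WT, and 0.745 and 0.937 in late KO against 0.138 and 0.0930 in late WT. That ratio did not exceed 0.0266 in any Gata3 library. Alpha chain reads per kb were thus at least 0.522 of those of the beta chain in each Bcl11b KO library and at most 0.140 of them in each Bcl11b WT library. *Cd74* made up 59.2% and 61.3% of the members' reads per kb in early Bcl11b KO libraries, against 12.7% and 17.7% in early WT, and 2.12% to 10.6% in Gata3 libraries.

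**Figure D3:**
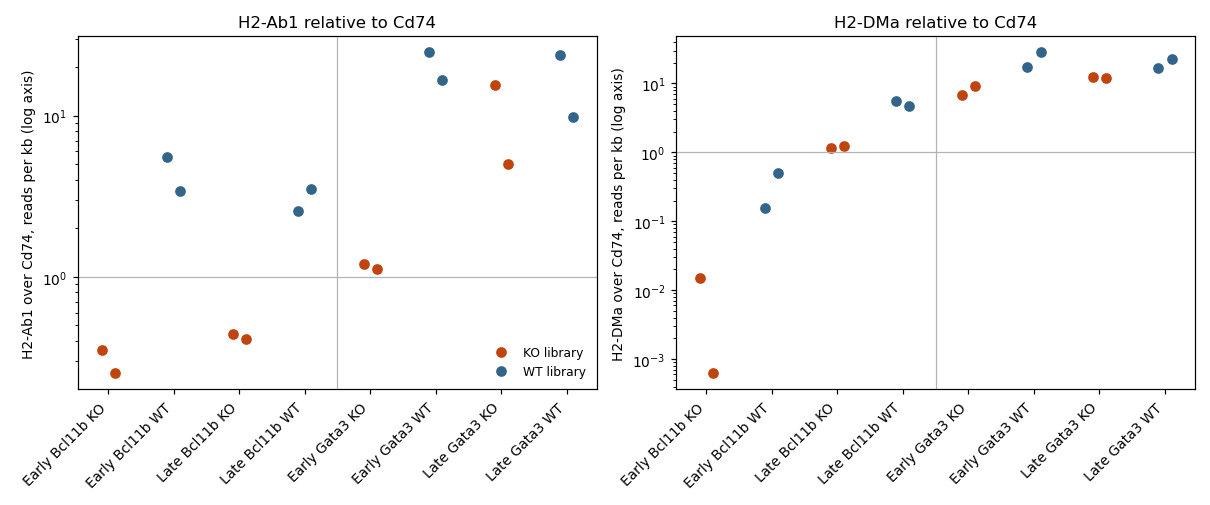
Reads per kb of *H2-Ab1* (left) and *H2-DMa* (right) for each read per kb of *Cd74*, per library on a log axis, with KO groups left of their WT groups. The grey horizontal line marks equal reads per kb. *H2-Ab1* lies under *Cd74* in the 4 Bcl11b KO libraries (0.252 to 0.440) and over it in the other 12.

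Markers of other cells were read beside these results. Among B cell markers, of which 16 were in the tables, the summed level was 248 and 315 CPM in early Bcl11b KO against 331 and 302 CPM in early Bcl11b WT, 93.2 and 98.4 CPM in late Bcl11b KO against 28.9 and 23.0 CPM in late WT, and 3.11 to 7.32 CPM in the 8 Gata3 libraries. *Ms4a1*, which encodes CD20, and *Pax5*, the B lineage factor, had no read in any of the 8 Gata3 libraries, which at a floor of 3 reads allows at most 3 reads in each. *Cd79a*, a chain of the B cell receptor complex, had 0.136 to 1.37 CPM there. In the Bcl11b experiment *Pax5* had 1.15 and 0 CPM in early KO against 0.419 and 2.10 CPM in early WT, and 1.07 and 2.32 CPM in late KO against 0.140 and 0.289 CPM in late WT.

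In late Bcl11b KO cultures B cell markers rose beside 3 of the 6 tested members. The other members tested were not called: *H2-Ab1* (log2 −0.49), *H2-DMa* (0.27) and *H2-DMb1* (1.01). Of 7 B cell markers tested, 4 rose, where 1.69% of all genes were called higher. Among them were *Pou2af1*, the coactivator OBF-1 (58.7 and 46.7 CPM in KO against 17.3 and 11.9 CPM in WT), *Cd79b* and *Fcer2a*. The 4 stood at log2 1.85 to 2.86, with a median of 2.08 over the 7. *Cd74*, *H2-Aa* and *H2-Eb1* rose by log2 2.38 to 2.78 in the same comparison. *Fcgr3*, a low-affinity IgG receptor of myeloid cells, rose too (7.86 and 11.3 CPM in KO against 0.770 and 1.37 CPM in WT), the only 1 called of 5 monocyte and macrophage markers tested. The monocyte and macrophage list summed to 80.9 and 67.8 CPM in late Bcl11b KO against 23.3 and 20.3 CPM in late WT, and the dendritic cell list to 246 and 215 CPM against 136 and 149 CPM. The defining macrophage genes *Lyz2*, *Csf1r*, *Itgam*, *Cd14* and *Emr1* were each at a higher level in both late KO libraries than in both late WT libraries. So were the dendritic cell genes *Itgax*, *Zbtb46* and *Flt3*, and none of these genes exceeded 14.7 CPM. Only 5 of 18 monocyte and macrophage markers and 7 of 12 dendritic cell markers reached the filter. Not all of the genes named here were therefore tested, and none was called. *Xcr1* was not called either, at 83.4 and 69.2 CPM in late KO against 39.7 and 37.6 CPM in late WT. Of 2 mast cell, basophil and neutrophil markers tested 0 were called in edgeR, with 1 higher at an unadjusted p under 0.05, and that list summed to 4.79 and 3.06 CPM in late KO against 0.560 and 0.217 CPM in late WT. The part of B cell and myeloid RNA in the late Bcl11b result was not tested. In bulk RNA, more cells of a type and more RNA per cell cannot be told apart.

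In early Bcl11b cultures the B cell list did not move with *Cd74*. Of 7 B cell markers tested 1 was called, *Cd22*, and it fell (2.82 and 5.63 CPM in KO against 30.8 and 23.9 CPM in WT), and the median of the 7 was log2 0.17. Of all genes, 21.1% were called there, with a median of log2 0.03. The monocyte and macrophage list summed to 63.3 and 26.9 CPM in early KO against 90.3 and 98.5 CPM in early WT. *Lyz2* had 0 and 1 read in early KO libraries against 2 and 0 in early WT, and *Csf1r* had no read in early KO against 45 and 194 reads in early WT. The dendritic cell list summed to 386 and 385 CPM in early KO against 318 and 342 CPM in early WT. Within it *Bst2* and *Cd83*, which activated T cells also use, rose and *Irf8* fell. *Cpa3*, a mast cell protease, stood at 45.4 and 42.0 CPM in early KO against 1.05 and 3.35 CPM in early WT, and *Mpo*, a neutrophil enzyme, at 0.417 and 0 CPM against 18.4 and 23.3 CPM. The rise of *Cd74* in early Bcl11b KO stood beside B cell and macrophage sums that were not higher in both KO libraries than in WT. The dendritic cell sum was higher in both. Background was not taken off these sums or off the single markers. Receptor transcripts held 3.78 and 4.87 reads per kb in the early WT libraries, against 0.507 and 0.290 in early KO. Low markers and sums were therefore not compared at equal background. The defining dendritic cell markers alone summed to 20.9 and 22.4 CPM in KO, between the 9.43 and 43.4 CPM in WT. Of the mast cell, basophil and neutrophil genes, *Cpa3* rose, whereas *Mpo* fell and *Kit* had 0 and 0.882 CPM in KO against 2.09 and 7.96 CPM in WT.

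Gata3 cultures were unlike these: the defining B cell markers were at or near 0 in KO and WT alike, while *Cd74*, *H2-DMa* and *H2-DMb1* rose. No B cell marker reached the filter there. Of 3 monocyte and macrophage markers tested 1 fell early, beside 16.8% of all genes. Late, 1 rose (*Cd68*) and 1 fell, beside 8.44% and 5.59% of all genes. The list summed to 12.2 and 12.9 CPM in early Gata3 KO against 39.6 and 22.8 CPM in early WT, and to 24.7 and 19.2 CPM in late KO against 45.6 and 26.8 CPM in late WT. *Emr1*, which encodes the macrophage antigen F4/80 (now named *Adgre1*), held most of the WT sums, with 0 and 0 CPM in early Gata3 KO against 29.4 and 12.5 CPM in early WT, and 2.15 and 2.13 CPM in late KO against 33.6 and 18.8 CPM in late WT. Its fall passed the test at both stages (edgeR adjusted p = 0.000104 and 0.00210), and *Lyz2* had 1 read in all 8 libraries together. The dendritic cell list was higher in Gata3 KO, at 624 and 653 CPM early against 312 and 329 CPM in WT, and 403 and 467 CPM late against 312 and 332 CPM in WT. *Irf8*, *Batf3* and *Bst2*, which T cells can also express, carried the early difference, and *Batf3*, at 184 and 178 CPM in late KO against 5.23 and 3.86 CPM in late WT, the late one. Its defining genes were at or near 0 (*Itgax*, *Flt3*, *Zbtb46*, *Siglech*, at most 0.866 CPM), apart from the chemokine receptor gene *Xcr1*, which fell to 3.36 and 1.14 CPM in early Gata3 KO against 30.6 and 36.1 CPM in early WT. Mast cell, basophil and neutrophil markers summed to 6.75 CPM or less in every Gata3 library.

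T cell markers were read as well. Of 11 tested, 3 rose in early Bcl11b KO (*Cd4*, *Cd3g* and *Cd5*) and 2 in late Bcl11b KO, *Cd4* to 3778 and 3301 CPM against 1288 and 1392 CPM in late WT and *Cd3g* to 548 and 508 CPM against 285 and 281 CPM. In early Gata3 KO 3 rose and 3 fell, among them *Il4*, and in late Gata3 KO 2 rose and 1, *Gata3* itself, fell. Of all genes tested, 21.1% were called in early Bcl11b KO and 2.22% in late Bcl11b KO. The shares were 30.7% in early Gata3 KO and 14% in late Gata3 KO.

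**Figure D4:**
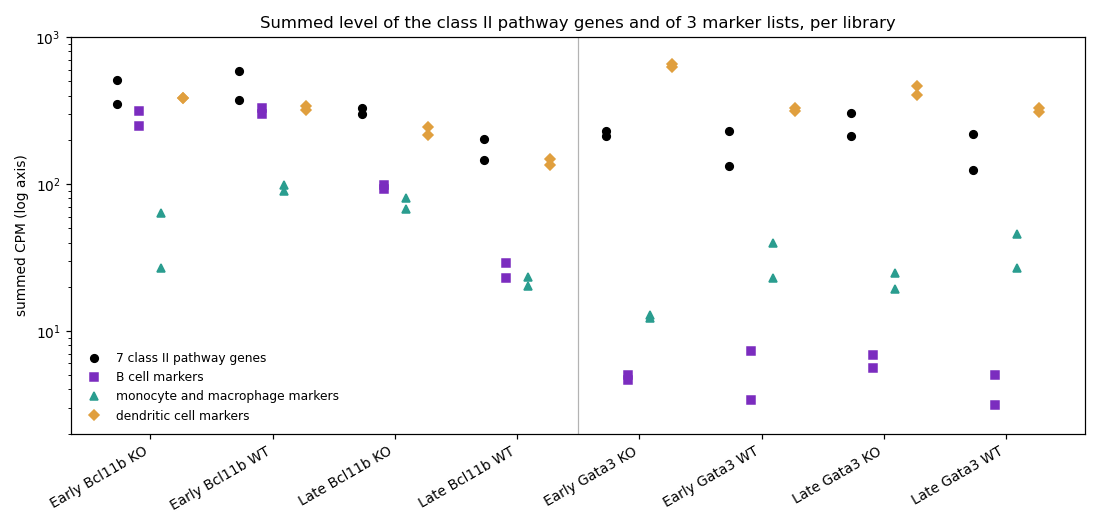
Summed CPM of the 7 class II pathway genes and of the B cell, monocyte and macrophage, and dendritic cell marker lists in each RNA library, on a log axis, with KO groups left of their WT groups. B cell markers sum to 23.0 to 331 CPM in the Bcl11b libraries and 3.11 to 7.32 CPM in the Gata3 libraries, whereas the class II genes sum to 125 to 588 CPM throughout. *H2-Aa* and *H2-Eb1* are at most 0.687 and 2.17 CPM in the Gata3 libraries.

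The same comparison can be put as a ratio of the members' CPM to the B cell markers' CPM. It averaged 1.511 ± 0.142 in early Bcl11b KO against 1.503 ± 0.387 in early WT, and 3.28 ± 0.09 in late Bcl11b KO against 6.92 ± 2.62 in late WT (SD, n = 2 each). For Gata3 cultures it averaged 45.6 ± 0.35 in early KO against 35.1 ± 5.6 in early WT, and 41.5 ± 4.4 in late KO against 41.9 ± 2.6 in late WT (SD, n = 2 each). The summed RNA of the 7 members per unit of B cell marker RNA thus varied 30.3-fold between the groups with the highest and the lowest mean. These were early Gata3 KO and early Bcl11b WT. The make-up of that sum differed: in the Gata3 libraries *H2-Aa* was at most 0.687 CPM and *H2-Eb1* at most 2.17 CPM. There *H2-Ab1* was at least 28.8 CPM and *H2-DMa* at least 64.6 CPM. The span is thus one of the sum and not of each member. Against the defining B cell markers alone the span was 162-fold, from 6.84 in early Bcl11b KO to 1106 in early Gata3 WT. The early Gata3 WT libraries held 1 and 2 reads of these markers, all of *Cd79a*, which is under the floor of 3 reads. The value of 1106 and the 162-fold span therefore rest on a denominator near 0. Against the 30 monocyte, macrophage and dendritic cell markers together the ratio ran from 0.339 ± 0.010 in early Gata3 KO to 1.14 ± 0.42 in early Bcl11b WT. The order was another one against the defining myeloid markers alone, where early Gata3 KO was the highest group, at 53.2, and early Bcl11b WT was at 5.46.

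Other genes of the class II route were read from a list of 22. In early Bcl11b KO cultures 4 of the 19 tested were called, all higher, beside 21.1% of all genes called: the lysosomal proteases *Ctsd* and *Ctss*, the costimulatory ligand gene *Cd80* (44.5 and 45.3 CPM against 1.68 and 8.17 CPM in WT) and *Cd83*. In late Bcl11b KO, where 2.22% of all genes were called, 1 of 19 rose, *Ctsd*, to 1126 and 1195 CPM against 301 and 335 CPM in WT. In early Gata3 KO cultures 3 of 17 rose and 6 fell, beside 14% of all genes called higher and 16.8% lower. The endopeptidase gene *Lgmn*, which takes part in invariant chain cleavage, fell to 1.95 and 1.37 CPM against 36.6 and 33.7 CPM in early WT, and *Ctsb* fell to 340 and 301 CPM against 698 and 737 CPM. In late Gata3 KO 2 of 17 rose and 2 fell, beside 8.44% and 5.59% of all genes. *Ctss*, whose product removes most of the invariant chain in antigen-presenting cells, rose to 113 and 97.6 CPM against 43.8 and 42.5 CPM in late WT, while *Lgmn* and *Cd86* fell.

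The class I route was more uniform. Of 13 class I pathway genes tested, 7 were called in early Bcl11b KO, 2 in late Bcl11b KO, 12 in early Gata3 KO and 9 in late Gata3 KO, all of them higher, with medians of log2 0.81, 0.61, 1.04 and 0.48 beside 0.03, −0.02, −0.0025 and 0.0044 over all genes. Of all genes, 11%, 1.69%, 14% and 8.44% were called higher in these comparisons. *Nlrc5*, the class I counterpart of *Ciita*, rose in 3 of these comparisons: to 168 and 260 CPM in early Bcl11b KO against 59.3 and 51.6 CPM in WT, to 173 and 176 CPM in early Gata3 KO against 36.9 and 42.7 CPM in WT, and to 63.6 and 79.0 CPM in late Gata3 KO against 37.2 and 47.9 CPM in WT. *H2-K1* and *H2-D1*, the classical class I heavy chains, were the 2 called in late Bcl11b KO.

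Of 13 tested genes of the interferon gamma axis, 9 rose and 1 fell in early Gata3 KO, 6 rose in late Gata3 KO, and 0 were called in late Bcl11b KO by edgeR, where 2 were higher at an unadjusted p under 0.05. Of all genes, 14% were called higher and 16.8% lower in early Gata3 KO, and 8.44% and 5.59% in late Gata3 KO. The shares were 11% and 10.1% in early Bcl11b KO, and 1.69% and 0.524% in late Bcl11b KO. *Ifng* had 931 and 991 CPM in early Gata3 KO against 6.10 and 2.63 CPM in early WT, and 7.05 and 84.5 CPM in late Gata3 KO against 3.14 and 4.07 CPM in late WT. In the 2 early Gata3 KO libraries at that level, *Ciita* had 7 and 8 reads, against 5 and 8 in early WT. *Irf1* and *Gbp2* rose with it in early Gata3 KO (log2 1.63 and 3.08). In early Bcl11b KO, where *Ifng* had 1.88 and 0 CPM against 3.56 and 0.419 CPM in WT, 4 of 13 rose, *Jak1* among them, and 2 fell, *Irf8* and *Ifngr1*. Among 11 T cell activation and IL-4 receptor genes, 7 fell and 2 rose in early Gata3 KO, 3 fell and 1 rose in late Gata3 KO, 3 rose and 2 fell in early Bcl11b KO, and 1 (*Tnfrsf9*) rose in late Bcl11b KO.

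The 8 non-member genes whose pattern was most like that of *Cd74* were found by the root mean square difference of log2(CPM + 1), centred within each experiment, over all 16 libraries and 11543 genes. *Cd274*, which encodes PD-L1, was the nearest at 0.287, with 449 and 323 CPM in early Bcl11b KO against 118 and 99.3 CPM in early WT, and 57.5 and 57.3 CPM in early Gata3 KO against 10.6 and 10.7 CPM in early WT. It was followed by *Plxdc2* (0.385), *Ddx60* (0.394), *Tor3a* (0.447), *Rsad2* (0.466), *Parp8* (0.467), *Mcoln2* (0.469) and *Evl* (0.472). A flat profile differed from *Cd74* by 1.12 on this measure. The other members compared were farther off, *Ciita* not being among them since it was under the filter: *H2-DMb1* at 0.746 and *H2-Aa* at 0.753 ranked 152 and 164 among the genes compared, and *H2-Eb1* at 1.18, *H2-Ab1* at 1.66 and *H2-DMa* at 2.36 were farther from *Cd74* than a flat profile. As these measures rest on the same 16 libraries, they are a description.

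Peaks of Bcl11b and GATA3 in late WT Th2 cells were few at these genes. The authors' lists assign 3 of 17459 Bcl11b peaks and 1 of 28612 GATA3 peaks to members, by closest start site. The Bcl11b peaks were at chr17:34169191-34169897 and chr17:34165208-34166008, downstream of *H2-DMb1*, and at chr17:34263926-34265510 inside *H2-Ab1*. Their fold enrichments, the authors' own values per peak, were 3.86, 2.15 and 1.37 at false discovery rates of 0.08%, 0.74% and 1.25%. The list's median fold is 3.01, and the 3 peaks exceeded 75.2%, 13.6% and 0.0516% of the list. The GATA3 peak lay at chr17:34255539-34255990, with its summit at −7529 bases from the *H2-Ab1* start, that is upstream, and a fold enrichment of 3.17, which exceeded 52.7% of a list with a median of 3.01. None of the 4 overlapped an input peak or a peak of the other antibody, although the input had a peak of its own at the *H2-Ab1* start (chr17:34262983-34263420, fold 5.75 in a list with a median of 8.74). No peak of either antibody touched the annotated interval of *Cd74*, *H2-Aa* or *H2-Eb1*, and 1 Bcl11b peak within the *Ciita* interval (chr16:10524731-10525257, fold 2.09) was assigned to its neighbour *Dexi*. The annotated interval of *H2-DMa* begins beside *Brd2*, to which the authors assign the peaks there, and its start is uncertain, so the 3 Bcl11b peaks and 1 GATA3 peak that touch it, with 1 input peak, were not read as peaks of *H2-DMa*. With 1 library per antibody, peaks have no replicate check.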

How the data were processed

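RNA-seq of mouse Th2 cultures (16 libraries) and 3 chromatin immunoprecipitation libraries were used as deposited. Per the labels, RNA was amplified from 10 ng. The authors' deposited RNA tables give read counts and RPKM per RefSeq transcript, and no column was left unused for lack of a sample (0 columns). Dividing counts by length and RPKM gives 1 total per library, larger than its sum of gene reads. Peak lists, per the file headers, give for each peak its reads, a fold enrichment over background, a score (10 times the −log10 p of the caller) and a false discovery rate in percent. The authors deposited 1 peak list per library. Without stating what each was used for, the submitters' processing notes list the genome build mm10, the aligners TopHat2 2.0.13, Novoalign and Bowtie, the peak caller MACS 1.4.2, and CASAVA 2.18. The counting tool and strand setting were not stated in the sources used here.

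Counts of each gene's most read transcript were tested with edgeR 4.0.16 (quasi-likelihood, TMM) in R 4.3.3, 1 fit per experiment over its 8 libraries, for genes that reached an RPKM of 1 in 2 or more libraries. SE is the log2 difference over the square root of F. The KO comparisons, the comparisons of late with early cultures and the difference of KO effects between stages are contrasts of these fits. The fit was tested on simulated counts. Gene reads per library (4687552 to 14577958) set the precision, and intervals and the floor of 3 reads cover counting error only. DESeq2 1.42.0, limma 3.58.1 on log2(RPKM + 1) and log2(RPKM + 0.1), other filters, libraries, transcripts and scalings, subtraction of the reads per kb over odorant and vomeronasal receptor transcripts, a replicate block and leaving out each library were alternatives. Tables and figures were made with Python 3.11.15, numpy 2.4.6, pandas 2.3.3, scipy 1.17.1 and matplotlib 3.10.9.

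The members and the gene lists (B cell, monocyte and macrophage, dendritic cell, mast cell, basophil and neutrophil, T cell, other class II, class I, interferon gamma axis, T cell activation) were chosen with earlier results of these data known. All members are named, per list and KO comparison up to 4 called genes with the smallest adjusted p, the defining markers, and the 8 genes most like *Cd74*. Some genes that this rule names are not reported here. Genes named beyond this rule, such as *Ifng*, were chosen after their values were seen.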

Additional observations from a re-analysis of the deposited data

Results flagged for a closer look

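The effect of the *Bcl11b* KO on *H2-DMa* differed between the stages by log2 4.15 (late minus early, edgeR adjusted p = 0.0393). The KO was lower than WT early. Late, both KO libraries lay above both WT libraries, by a difference that did not pass the test (log2 0.27, edgeR adjusted p = 0.948). The stage difference did not pass in DESeq2 (adjusted p = 0.0502). The early KO value rests on 17 reads and 1 read, and *H2-DMa* stood at 68.2 to 93.1 CPM in the 4 late libraries.

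*H2-DMa* also lay on opposite sides of 0 in the 2 experiments, at log2 −3.88 in early Bcl11b KO against WT and 1.12 in early Gata3 KO against WT, with each KO library beyond each WT library in both. The difference between the experiments was not tested.

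*H2-Eb1* did the same in late cultures, at log2 2.78 in late Bcl11b KO against WT and −1.25 in late Gata3 KO against WT. The Gata3 value comes from a fit without the filter on low values, since the gene held 3 to 18 reads in the late Gata3 libraries. It was not called there (edgeR adjusted p = 0.373). Without the filter the late Bcl11b value was 2.76 and was not called either (edgeR adjusted p = 0.0618). The difference between the experiments was not tested.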

How the results depend on the processing

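Of the values set against an alternative, 819 kept direction and side of the threshold, 33 gained a call, 61 lost one and 27 changed sign. *Cd74* stayed called under every alternative in early Bcl11b, late Bcl11b and early Gata3 KO against WT. Depth limits *H2-Aa*, *H2-Eb1* and *Ciita* in the Gata3 experiment and *H2-DMa* in early Bcl11b KO. Limma on RPKM scales by the implied total, which in early Bcl11b WT libraries holds the most reads outside genes, and it shifted the median of all genes in early Bcl11b KO against WT to log2 0.86 and 1.14 (pseudocounts 1 and 0.1), in late against early Bcl11b WT to 1.04 and 1.43, in the Bcl11b stage difference to −1.04 and −1.33 and in late Bcl11b KO against WT to −0.16 and −0.20. Over all genes the 2 limma fits called 6889 and 6960 genes in early Bcl11b against 2291 in edgeR, 219 and 89 in late Bcl11b against 241, 6054 and 5846 in the Bcl11b stage difference against 352, and 7773 and 7766 in late against early Bcl11b WT against 4529. The cause of the other changes below was not tested.

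Under both limma fits the members called were 5 in early Bcl11b KO (3 in edgeR) and 2 in late against early Bcl11b WT (6 in edgeR), and limma with pseudocount 0.1 called 1 in late Bcl11b KO (3 in edgeR). *H2-DMb1* in early Bcl11b KO changed sign to 0.88 and 1.32. In the Bcl11b stage difference *Cd74* changed sign to −0.66 and −0.65, *H2-DMb1* to −0.51 and −0.54 and, with pseudocount 1, *H2-Eb1* to −0.20. In late against early Bcl11b KO *H2-Aa* changed sign to 0.037 and 0.042. For the Gata3 stage difference DESeq2 and each limma fit called 1 member, against 0 in edgeR, and for the Bcl11b stage difference DESeq2 called 2 (*H2-Aa* and *H2-Ab1*, without *H2-DMa*) and a fit of all 16 libraries 2, against 1. Without the filter on low values 5 members were called in early Gata3 KO (3 with it) and 2 in the Gata3 stage difference (2076 genes in all against 1294), and *H2-DMb1* in early Bcl11b KO was at 0.16. The fit of all 16 libraries called 1 member in late Gata3 KO, against 3, and 613 genes in the Gata3 stage difference. Background-subtracted counts gave 1 called member in late Bcl11b KO and 0 in the Bcl11b stage difference, and kept *Cd74* (1.62), *H2-Ab1* (−2.35) and *H2-DMa* (−3.95) called in early Bcl11b KO. Markers restricted to the defining ones moved the ratio of the highest to the lowest group from 30.3 to 162. The highest group, early Gata3 WT, then had only 1 and 2 reads of those markers. Of the 4 assigned peaks 0 had a fold of at least 10.

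The replicate numbers were tried as a block. Same-numbered deviations correlated at −0.0799 to 0.344 in the Bcl11b and 0.173 to 0.605 in the Gata3 experiment, with only 2 numbers and no label that ties a number to an animal or day. With the replicate block, members called were 3 in early and 2 in late Bcl11b KO, 0 in the Bcl11b stage difference, 6 and 3 in late against early Bcl11b WT and KO, 4 in early and 3 in late Gata3 KO, 3 in the Gata3 stage difference (2387 genes in all), and 0 and 3 in late against early Gata3 WT and KO. The block added calls of *H2-Ab1* in early Gata3 KO (−1.55, edgeR adjusted p = 0.000125) and of *Cd74*, *H2-Ab1* (edgeR adjusted p = 0.000429) and *H2-DMa* in the Gata3 stage difference, and lost *H2-Aa* in late Bcl11b KO (edgeR adjusted p = 0.0580) and *H2-DMa* in the Bcl11b stage difference (edgeR adjusted p = 0.0773). *H2-DMb1* in early Bcl11b KO was at 0.039 under it.

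Leaving out 1 library at a time, the members called ranged from 1 to 3 in late Bcl11b KO, 0 to 2 in the Bcl11b stage difference, 1 to 4 in late against early Bcl11b KO, 1 to 3 in late Gata3 KO, 0 to 1 in the Gata3 stage difference and 0 to 3 in late against early Gata3 KO. Values that changed sign ranged, in early Bcl11b KO, from −0.43 to 1.10 for *H2-Aa*, −0.14 to 1.26 for *H2-Eb1* and −0.80 to 1.28 for *H2-DMb1*. *H2-DMb1* ranged from −0.27 to 1.83 in the Bcl11b stage difference, *H2-Aa* from −0.36 to 0.29 in late against early Bcl11b KO and *H2-Ab1* from −0.367 to 1.498 in late Gata3 KO. In late against early Gata3 WT *Cd74* ranged from −0.19 to 0.59, *H2-Ab1* from −1.22 to 0.69, *H2-DMa* from −0.0078 to 0.041 and *H2-DMb1* from −0.19 to 0.33.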
